A study of Mus musculus with 10 samples.

Results

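Immediate early transcription factor genes are switched on soon after a stimulus reaches a cell, before any new protein is made. The genes described here were chosen by gene name, with earlier results of these data known. They are Egr1, Egr2, Egr3, Fos, Fosb, Jun, Junb, Ier2, Nr4a1 and Atf3, so 10 of the 17737 genes in the count table. Bulk RNA was sequenced from subcutaneous tumors that B16-F10, a murine melanoma line, had formed in C57BL/6 mice by day 11. The implanted cells overexpressed IL-18, a cytokine that drives interferon-gamma production by natural killer and T cells. In D69A tumors (n = 5, numbered 1 to 5) that IL-18 carried alanine in place of aspartate at position 69, and in WT tumors (n = 5, numbered 2 to 6) it was the unaltered form. All tumors thus carried an IL-18 transgene, and no tumor without one was analysed here. The labels do not give the promoter of the transgene, the age or sex of the mice, whether each line was a clone or a pool, or whether each tumor came from its own mouse. The p-values therefore measure the spread between these samples.

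Immediate early genes are transcribed by factors that the resting cell already holds. Growth factor, antigen receptor and stress signals reach them through kinases such as ERK, which phosphorylates the ternary complex factors that bind DNA beside serum response factor (SRF). Egr proteins bind GC-rich sites through zinc fingers, whereas Fos and Jun proteins pair through leucine zippers to form AP-1. In T cells Egr2, Egr3 and Nr4a1 are known as products of antigen receptor signalling, and the same genes are induced in fibroblasts, macrophages and tumor cells.

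Total counts ranged from 34400949 to 37578722 in D69A tumors and from 25904345 to 37556163 in WT tumors. Over all genes 6004 of 13798 tested passed the threshold (43.5%), with 3410 lower in D69A tumors (24.7%) and 2594 higher (18.8%). The 8 melanocyte lineage markers summed to 24504 to 31422 CPM (a gene's count relative to the library total, after TMM scaling) in D69A tumors and to 16650 to 20658 CPM in WT tumors, so the labelled cell type was found in every tumor. The 8 leukocyte markers summed to 212.8 to 450.5 CPM in D69A tumors and to 607.5 to 1645 CPM in WT tumors, and all 8 were lower in D69A. The 7 fibroblast markers summed to 373.2 to 1339 CPM in D69A tumors and to 2206 to 5794 CPM in WT tumors, and 6 of them were lower. In bulk tissue, fewer cells of a type and less RNA per cell cannot be told apart. None of these 23 markers was at 0 counts in all tumors.

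All 10 genes had enough counts to be tested. Of these, 7 were lower in D69A tumors (Egr1, Egr2, Egr3, Jun, Junb, Ier2 and Atf3) and 0 were higher (edgeR's quasi-likelihood test, p-values adjusted over all 13798 genes by Benjamini-Hochberg, called under 0.05). The shares called over all genes were 24.7% for lower and 18.8% for higher. DESeq2 and limma-voom likewise called 7 lower and 0 higher, and 0 were higher at an unadjusted p under 0.05. The median log2 fold change of the 10 genes was -0.78, against 0.0024 over all tested genes. In 5 of them (Egr1, Egr2, Egr3, Junb and Ier2) every D69A tumor lay below every WT tumor, a pattern that 17.4% of all tested genes showed, while 29.4% showed no overlap in either direction.

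The Egr genes changed most among the 10. Egr1 (chromosome 18, 34859823 to 34864984 in mm10), the zinc finger factor most widely used as a readout of ERK signalling, stood at 8.23, 5.29, 7.09, 4.17 and 4.89 CPM in D69A tumors 1 to 5, against 9.92, 24.3, 14.8, 31.3 and 14.8 CPM in WT tumors 2 to 6. The highest D69A tumor lay just below the lowest WT tumor, and WT tumors 3 and 5 stood above the rest. The log2 fold change of Egr1 was -1.68 (SE 0.31; edgeR's quasi-likelihood test, adjusted p = 0.00176).

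Egr2 (chromosome 10, 67535475 to 67542188) is needed for myelination in Schwann cells and restrains activated T cells. It stood at 3.64, 2.14, 1.92, 2.28 and 2.20 CPM in D69A tumors 1 to 5, against 5.09, 9.07, 7.20, 11.7 and 7.53 CPM in WT tumors 2 to 6. D69A tumor 1 was the highest of its group and the other 4 lay close together. The log2 fold change of Egr2 was -1.74 (SE 0.25; edgeR's quasi-likelihood test, adjusted p = 0.000701).

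Egr3 (chromosome 14, 70077203 to 70082614), which overlaps Egr2 in function in lymphocytes, had the largest change of the 10. Its level was 3.74, 1.81, 1.201, 1.42 and 2.23 CPM in D69A tumors 1 to 5, against 4.60, 19.2, 8.82, 17.3 and 8.03 CPM in WT tumors 2 to 6. The WT tumors spread over 4.18-fold and the D69A tumors over 3.12-fold, without overlap between the groups. Egr3 had a log2 fold change of -2.47 (SE 0.43; edgeR's quasi-likelihood test, adjusted p = 0.00143), and 3.88% of all tested genes changed by more in either direction.

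The Jun genes fell by less. Junb (chromosome 8, 84974484 to 84978718), an AP-1 subunit related to Jun, had 43.4, 37.2, 45.2, 34.6 and 44.9 CPM in D69A tumors 1 to 5, against 55.1, 89.3, 73.8, 136.7 and 69.3 CPM in WT tumors 2 to 6. The D69A tumors were close to each other and all below the WT tumors, of which tumor 5 was highest. Its log2 fold change was -1.05 (SE 0.21; edgeR's quasi-likelihood test, adjusted p = 0.00267).

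Jun (chromosome 4, 95049034 to 95052222), the partner that lets Fos proteins bind DNA, had 31.1, 33.2, 56.3, 35.4 and 38.1 CPM in D69A tumors 1 to 5, against 52.8, 71.5, 48.6, 92.7 and 55.5 CPM in WT tumors 2 to 6. The groups overlapped through D69A tumor 3, which was above WT tumors 2, 4 and 6. The log2 fold change of Jun was -0.73 (SE 0.20; edgeR's quasi-likelihood test, adjusted p = 0.0149). Exons of other genes lie opposite 7.28% of the exon sequence of Jun (Junos) and 7.52% of that of Junb (Prdx2), and the counting is not stated to use strand. With the 3 tumors richest in skeletal muscle markers left out (D69A 1, WT 3 and WT 4), Jun had a log2 fold change of -0.72 and lost the call (edgeR's adjusted p = 0.05595).

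The Fos genes did not pass the threshold. Fos (chromosome 12, 85473890 to 85477273), the founding member of its family, had 25.8, 27.4, 50.5, 34.6 and 39.1 CPM in D69A tumors 1 to 5, against 32.1, 34.98, 28.0, 82.7 and 39.9 CPM in WT tumors 2 to 6. Apart from WT tumor 5 the WT tumors lay inside the range of the D69A tumors, and the medians were 34.6 CPM in D69A and 34.98 CPM in WT tumors. The log2 fold change of Fos was -0.29 (SE 0.30; edgeR's quasi-likelihood test, adjusted p = 0.442), and it was 0.11 without WT tumor 5 (edgeR's adjusted p = 0.675).

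Fosb (chromosome 7, 19302696 to 19310051), a Fos relative, stood at 1.09 to 3.87 CPM (median 1.47) in D69A tumors and 1.60 to 3.39 CPM (median 1.76) in WT tumors. The groups overlapped, and D69A tumor 3 had the highest level of all 10 tumors. Its log2 fold change was -0.28 (SE 0.38; edgeR's quasi-likelihood test, adjusted p = 0.581). It was -0.68 without D69A tumor 3, and still did not pass.

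The other 3 genes belong to neither family. Ier2 (chromosome 8, 84661331 to 84662852) encodes a small nuclear protein and varied little within groups, at 23.7, 22.9, 19.8, 20.5 and 25.4 CPM in D69A tumors 1 to 5, against 29.8, 28.9, 26.8, 32.3 and 31.0 CPM in WT tumors 2 to 6. The groups did not overlap although the difference was small, with a log2 fold change of -0.40 (SE 0.08; edgeR's quasi-likelihood test, adjusted p = 0.00312).

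Atf3 (chromosome 1, 191170296 to 191218039), a leucine zipper factor of the stress response and of Toll-like receptor feedback, had 18.7, 20.1, 31.9, 22.0 and 22.6 CPM in D69A tumors 1 to 5, against 23.0, 50.8, 33.8, 62.5 and 35.4 CPM in WT tumors 2 to 6. D69A tumor 3 lay above WT tumor 2, so the groups overlapped. The log2 fold change was -0.84 (SE 0.25; edgeR's quasi-likelihood test, adjusted p = 0.0189). Without the 3 tumors highest in muscle markers Atf3 was at -0.74 and lost the call (edgeR's adjusted p = 0.108).

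Nr4a1 (chromosome 15, 101254269 to 101274795), the nuclear receptor Nur77 that is used as a reporter of antigen receptor signalling, was the only one of the 10 with a positive log2 fold change (0.22, SE 0.14), which did not pass (edgeR's quasi-likelihood test, adjusted p = 0.24). It had 83.7, 76.7, 87.4, 83.5 and 96.6 CPM in D69A tumors 1 to 5, against 101.3, 60.3, 76.3, 55.7 and 74.4 CPM in WT tumors 2 to 6. WT tumor 2 was the highest of all 10 tumors, and the other WT tumors lay below every D69A tumor. Without WT tumor 2 the log2 fold change was 0.36 and passed (edgeR's adjusted p = 0.0175).

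Promoters are shown for genes that fell (Egr2, Junb) and genes that did not pass (Fos, Nr4a1), so that their sequences can be set side by side. RefSeq windows of 300 bases (build GRCm38.p6, 250 before to 50 after a transcript start) were found for 7 of the 10 genes, in 11 windows, and none was used for Egr1, Egr3 and Ier2. The 150 bases before the start follow, with capitals marking matches to the motifs named next; for Egr2 they come from the window at chr10:67537619-67537918, the most upstream of 3 overlapping windows among its 5.
Egr2 (chr10:67537719-67537868, plus strand): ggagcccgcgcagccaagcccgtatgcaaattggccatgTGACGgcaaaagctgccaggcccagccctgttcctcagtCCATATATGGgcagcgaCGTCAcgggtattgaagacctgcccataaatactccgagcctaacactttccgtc
Junb (chr8:84978749-84978898, minus strand): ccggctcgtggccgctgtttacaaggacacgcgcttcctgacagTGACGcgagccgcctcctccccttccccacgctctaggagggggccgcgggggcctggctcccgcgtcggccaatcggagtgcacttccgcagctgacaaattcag
Fos (chr12:85473740-85473889, plus strand): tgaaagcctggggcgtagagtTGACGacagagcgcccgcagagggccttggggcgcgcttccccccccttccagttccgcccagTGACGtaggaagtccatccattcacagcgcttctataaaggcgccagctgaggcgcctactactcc
Nr4a1 (chr15:101266696-101266845, plus strand): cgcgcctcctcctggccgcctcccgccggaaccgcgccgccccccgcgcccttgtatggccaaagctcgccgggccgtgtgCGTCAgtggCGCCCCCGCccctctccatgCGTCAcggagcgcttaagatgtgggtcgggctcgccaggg

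The motifs searched on both strands were the CArG box bound by SRF, the cAMP response element TGACGTCA, its core TGACG (which lies inside the full element), the AP-1 site TGANTCA and the Egr site GCGNGGGCG. A CArG box was found in 4 of the 5 Egr2 windows, 3 of which overlap and hold the same box, so that there are 2 distinct boxes. None was found in a window of the other 6 genes, and 1.63% of 32851 promoter windows of the same length hold one. In the sequence above it is the CCATATATGG of Egr2, centred 67 bases before the start. The core TGACG was found for Egr2, Fos, Fosb, Junb, Nr4a1 and Atf3 and not for Jun, and 20.8% of all windows hold it. Nr4a1 had 4 copies in its window, of which 2 are in the stretch shown, and Fos had 2. The Egr site was found for Fosb and Nr4a1 (5.55% of all windows), and no window of the 7 genes held TGACGTCA (1.79%) or TGANTCA (7.81%). A match is a description of letters and not of binding, and no match says only that these letters are not in the window. A site more than 250 bases before a start, in Fos as in the other genes, would not be seen.

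**Figure D1:**
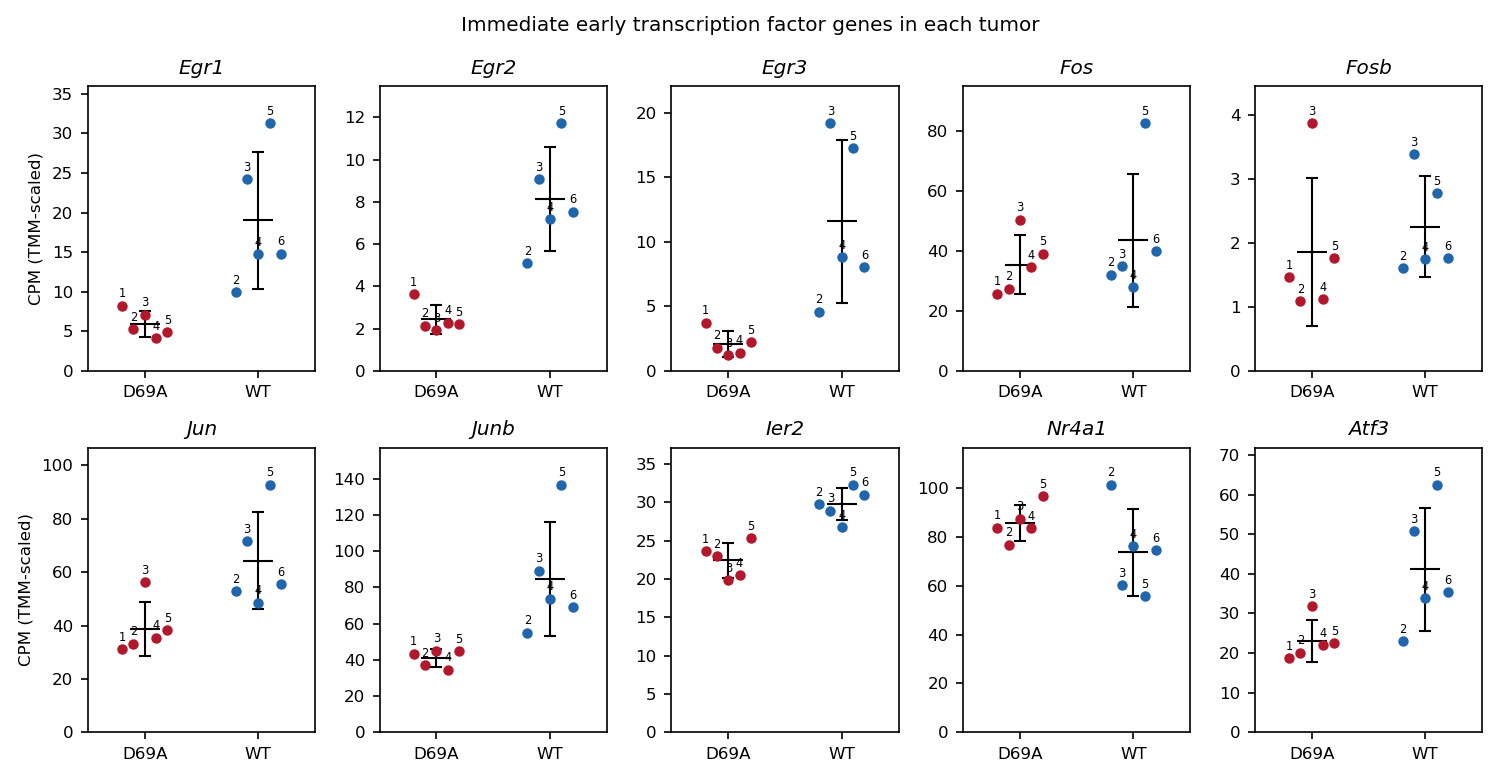
CPM (TMM-scaled, vertical axes from 0) of each gene in each tumor, D69A left in red and WT right in blue, with the tumor number beside each point and bars for the mean ± SD (n = 5 each). The 3 Egr genes, Junb and Ier2 show no overlap between groups, whereas Fos, Fosb, Jun, Nr4a1 and Atf3 do.

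**Figure D2:**
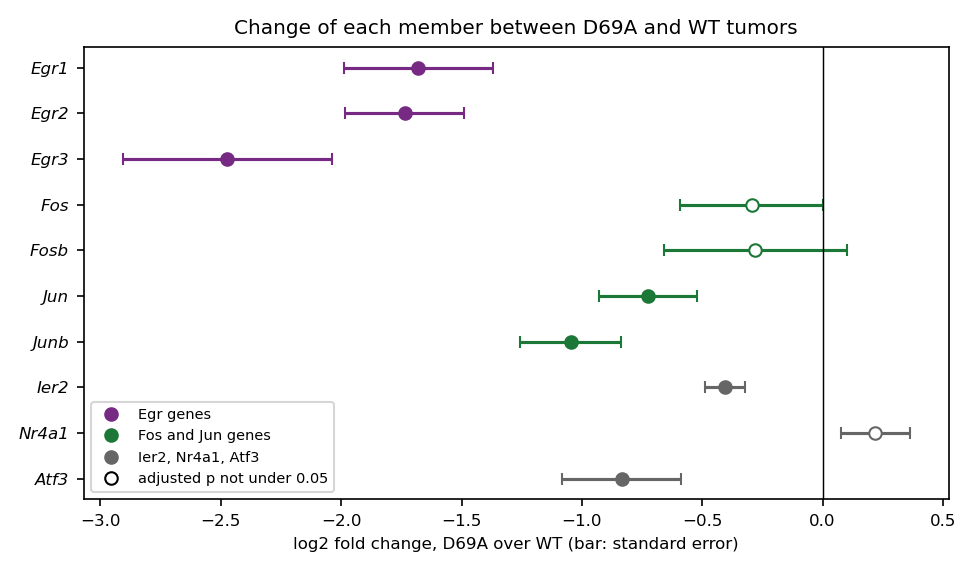
Log2 fold change of D69A over WT with its standard error for each gene, filled where the adjusted p was under 0.05. The Egr genes lie between -1.68 and -2.47, the Fos and Jun genes between -0.28 and -1.05.

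Per kilobase of exon, the order of levels within the group differed between the tumor types. In D69A tumors Nr4a1 was highest at 24.4 CPM per kilobase, followed by Junb at 17.9, Fos at 15.1, Ier2 at 14.8, Jun at 12.2 and Atf3 at 10.7. In WT tumors Junb was highest at 36.9 CPM per kilobase, followed by Nr4a1 at 20.97, Jun at 20.1, Ier2 at 19.5, Atf3 at 19.1 and Fos at 18.5. The middle neighbors in both orders are closer than the spread between tumors. The Egr genes were low in both, with 1.32 for Egr1, 0.717 for Egr2 and 0.472 for Egr3 in D69A tumors. In WT tumors they were at 4.24, 2.39 and 2.63 CPM per kilobase. Fosb was lowest at 0.299 in D69A and 0.362 CPM per kilobase in WT tumors. The length used joins all annotated exons of a gene (6243 bases for Fosb), and a shorter transcript would raise the level, so the orders depend on it.

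Whether the Egr genes changed by another amount than the Fos and Jun genes was tested on ratios within each tumor, in which library scaling nearly cancels. Each of the 3 Egr genes was set over each of Fos, Fosb, Jun and Junb as a difference of log2(CPM + 0.5), giving 12 pairs. In all 12 the Egr gene was lower relative to its partner in D69A tumors, by -0.55 to -1.92 on the log2 scale. Exact permutation of the tumor labels (two-sided, 252 assignments) gave p = 0.00794 for 3 pairs, the smallest that 5 against 5 tumors allow, p = 0.0159 for 8 pairs and p = 0.0238 for Egr1 to Jun. Adjusted over the 12 pairs, p was 0.0173 for 11 of them and 0.0238 for Egr1 to Jun. The pairs share genes and are not independent, and their genes were chosen with earlier results of these data known.

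The ratio that differed most was that of Egr3 to Fos. It was -2.63, -3.60, -4.91, -4.19 and -3.86 on the log2 scale in D69A tumors 1 to 5, against -2.68, -0.85, -1.61, -2.23 and -2.24 in WT tumors 2 to 6. D69A tumor 1 and WT tumor 2 met, and the other tumors of the groups were apart. The difference of the means was -1.92 (-3.84 ± 0.83 in D69A and -1.92 ± 0.71 in WT tumors, SD, n = 5 each; exact permutation p = 0.0159).

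Relative to Fosb the groups did not overlap for any Egr gene. Egr1 to Fosb averaged 1.52 ± 0.53 in D69A and 2.76 ± 0.35 in WT tumors, and Egr3 to Fosb 0.16 ± 0.92 in D69A and 2.004 ± 0.46 in WT tumors (log2 ratio, SD, n = 5 each). Both had an exact permutation p of 0.00794. The ratios to Junb moved least, with -0.55 for Egr1, -0.56 for Egr2 and -1.16 for Egr3 (exact permutation p = 0.0159 each). With a pseudocount of 2 CPM, Egr2 to Junb (-0.22) and Egr2 to Jun (-0.48) lost their calls (exact permutation adjusted p = 0.159 and 0.0693).

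**Figure D3:**
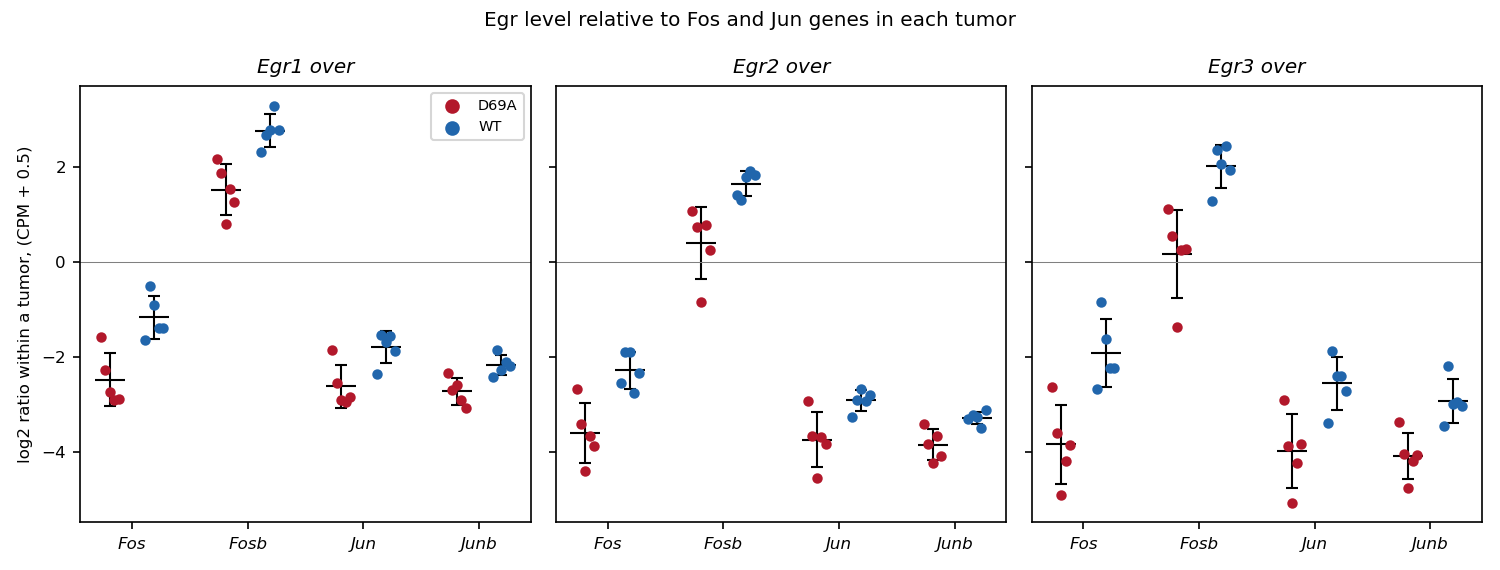
Log2 ratio of each Egr gene to Fos, Fosb, Jun and Junb in each tumor (vertical axis, pseudocount 0.5 CPM), with D69A in red left of WT in blue and bars for the mean ± SD (n = 5 each). The D69A mean is the lower in all 12 pairs, and 3 pairs, those with Fosb, show no overlap.

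Within the groups the Egr genes and the AP-1 genes peaked in different D69A tumors. D69A tumor 1 was the highest of its group in all 3 Egr genes and the lowest in Fos, Jun and Atf3. D69A tumor 3 was the highest in Fos, Fosb, Jun, Junb and Atf3 and the lowest in Egr2, Egr3 and Ier2. Leukocyte markers summed to 450.5 CPM in D69A tumor 1, against 212.8 to 259.4 CPM in the other D69A tumors, and fibroblast markers to 1339 CPM against 373.2 to 858.4 CPM. The part of these cells in the Egr levels was not tested.

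In WT tumors Egr and AP-1 genes mostly peaked in the same tumor. WT tumor 5 was the highest in 7 of the 10 genes, namely Egr1, Egr2, Fos, Jun, Junb, Ier2 and Atf3, and the lowest in Nr4a1. WT tumor 2 was the lowest in Egr1, Egr2, Egr3, Fosb, Junb and Atf3 and the highest in Nr4a1. Leukocyte markers summed to 1645 CPM in WT tumor 3 and 1598 CPM in WT tumor 5, against 607.5 CPM in WT tumor 2, the lowest of the WT tumors.

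The 10 heat shock genes, a sign of heat or handling stress, had 0 members past the threshold in either direction by edgeR, with 1 lower at an unadjusted p under 0.05 and 1 lower by DESeq2 and by limma-voom. Their sums, carried mostly by the constitutive genes Hspa8, Hsp90aa1 and Hspd1, were 4463 to 4773 CPM in D69A tumors and 4048 to 4931 CPM in WT tumors. The inducible genes Hspa1a and Hspa1b, near-identical copies between which reads may be split uncertainly, varied more. Hspa1a had 9.25 CPM in D69A tumor 3, against 2.73 to 4.70 CPM in the other D69A tumors, and 8.54 CPM in WT tumor 5, against 3.82 to 5.38 CPM in the other WT tumors. Hspa1b had 28.7 CPM in D69A tumor 3, against 7.07 to 12.5 CPM in the other D69A tumors, and 14.8 CPM in WT tumor 5, against 8.84 to 10.7 CPM in the other WT tumors. Dnajb1 and Hspb1 were likewise highest of their groups in D69A tumor 3 and WT tumor 5. Other genes of the list went the other way, and Hspa8, Dnaja1, Hsph1 and Hspd1 were lowest of all 10 tumors in WT tumor 5. Hspe1 and Hsp90aa1 peaked in neither tumor. Most AP-1 genes peaked in D69A tumor 3 and WT tumor 5. With both left out, a comparison chosen after the data were seen, the same count of 7 genes was lower and 0 were higher, Jun was at -0.69 (edgeR's adjusted p = 0.00421), Fos at -0.05 (edgeR's adjusted p = 0.801) and Fosb at -0.60 (edgeR's adjusted p = 0.15). The 12 Egr ratios were then all still lower, by -0.51 to -1.73 on the log2 scale, but 0 passed (exact permutation adjusted p = 0.0623 to 0.0857). Skeletal muscle markers, set beside the genes as markers of adjoining tissue, summed to 2.93 to 578.5 CPM in D69A tumors and 4.86 to 1740 CPM in WT tumors. The part of handling and of adjoining tissue in the results was not tested further than by leaving tumors out.

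**Figure D4:**
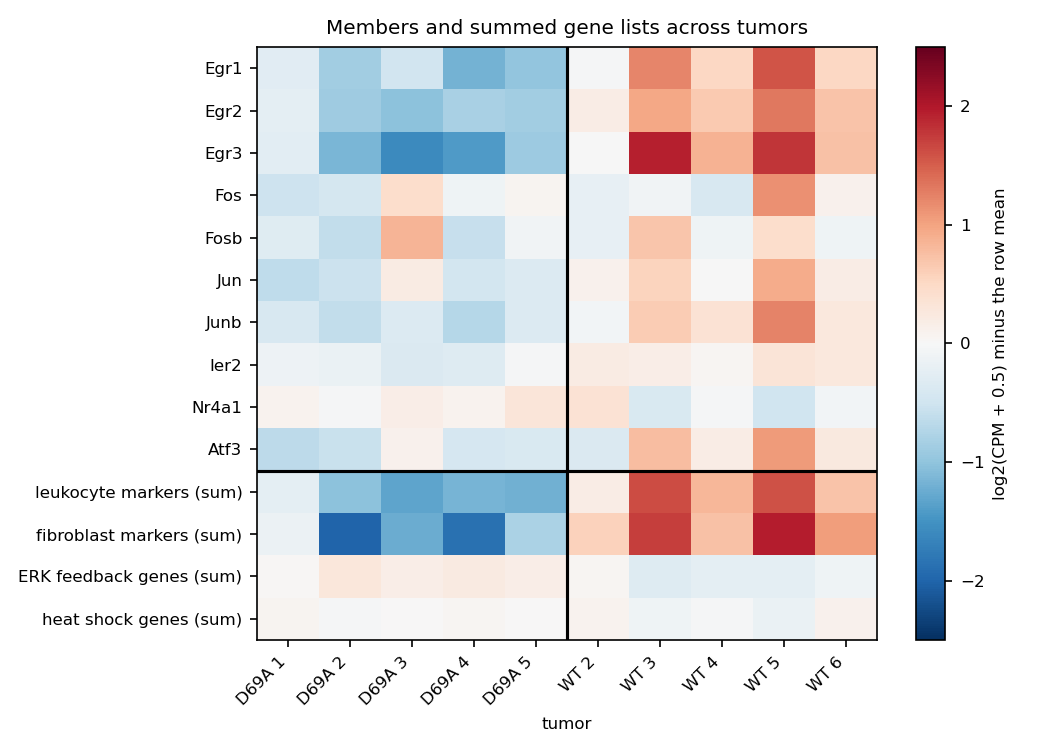
Log2(CPM + 0.5) minus the mean of the row, for the 10 genes and for 4 summed gene lists (rows) in the D69A tumors on the left and the WT tumors on the right. D69A tumor 1 is the palest of its group in the Egr rows and in the leukocyte and fibroblast rows, D69A tumor 3 is pale red in the Fos and Fosb rows, and the row of summed heat shock genes, which Hspa8, Hsp90aa1 and Hspd1 dominate, is nearly uniform although Hspa1a and Hspa1b were high in D69A tumor 3.

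The patterns of the 10 genes over the 10 tumors were compared by the root mean square difference of their centred log2 levels. Jun and Atf3 were most alike (0.186), followed by Junb and Atf3 (0.229), Egr1 and Egr2 (0.258), and Jun and Junb (0.267). Egr3 and Nr4a1 were farthest apart (1.43). Over all 12639 other genes with a mean of at least 1 CPM, the nearest to Egr1 was Prrg3 (0.105), to Egr2 the complement protease gene C1ra (0.0879) and then the Fc receptor gene Fcgr3 (0.103), and to Egr3 the kinase gene Camk1d (0.124). The nearest to Jun was the small GTPase gene Rras (0.118) and then Klf6 (0.129), itself an immediate early zinc finger gene. The nearest to Fosb was the heat shock gene Hspa1a (0.208). The nearest to Fos was Higd1a (0.158), and Ier3 was second (0.174). For the remaining members the nearest were Lhfp to Junb (0.105), Pcdh7 to Ier2 (0.0884), Fbxl19 to Nr4a1 (0.0847) and Cav1 to Atf3 (0.12). Second neighbors are named for Egr2, Jun and Fos only. These are descriptions over 10 tumors of 2 groups, so genes with a like difference between groups come out as alike.

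Other immediate early genes mostly fell too. Of 28 tested genes of a list of 30, 17 were lower and 1 was higher in D69A tumors, beside 24.7% lower and 18.8% higher over all tested genes, with a median log2 fold change of -0.63, against 0.0024 over all tested genes. Arc, which encodes a synaptic capsid-like protein, averaged 0.731 ± 0.24 CPM in D69A tumors and 4.84 ± 2.3 CPM in WT tumors (SD, n = 5 each), with a log2 fold change of -2.72 (SE 0.35). Zfp36, which encodes the mRNA decay factor tristetraprolin, averaged 13.3 ± 2.96 CPM in D69A and 37.0 ± 11.2 CPM in WT tumors (log2 fold change -1.48, SE 0.22). Csrnp1, which encodes a nuclear protein, had a log2 fold change of -0.99 (SE 0.14). Jund (-0.20, SE 0.13), the AP-1 subunit that is made in resting cells, and Myc (0.29, SE 0.16) did not pass. Without WT tumor 2 Myc was at 0.43 and passed as higher (edgeR's adjusted p = 0.0221). Without the 3 tumors highest in muscle markers 10 of the list were lower, against 17 with all tumors, while the median was -0.595 (log2). Leukocyte (8 of 8), fibroblast (6 of 7) and endothelial markers (6 of 6) were lower in D69A tumors too, and their part in the fall of these genes was not tested.

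The paralogs of Nr4a1 changed in opposite directions, and were singled out after their values were seen. Nr4a3 had 314.3, 331.7, 606.7, 351.3 and 436.6 CPM in D69A tumors 1 to 5, against 286.2, 246.4, 239.9, 297.8 and 248.7 CPM in WT tumors 2 to 6. Every D69A tumor was above every WT tumor, a pattern that 1657 of 13798 tested genes showed, and D69A tumor 3 was highest (log2 fold change 0.63, SE 0.17; edgeR's quasi-likelihood test, adjusted p = 0.0114). Nr4a2 averaged 3.96 ± 0.61 CPM in D69A and 5.84 ± 0.95 CPM in WT tumors (SD, n = 5 each) and was lower (log2 fold change -0.56, SE 0.16; edgeR's quasi-likelihood test, adjusted p = 0.0156), although without the 3 tumors highest in muscle markers it was at -0.55 and lost the call (edgeR's adjusted p = 0.0581), as it did at -0.48 without D69A tumor 3 and WT tumor 5 (edgeR's adjusted p = 0.0645).

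Feedback genes of the ERK pathway, which ERK activity induces and whose products mostly restrain it, went mostly the other way from the Egr genes. Of 12 tested, 8 were higher and 1 lower in D69A tumors, beside 18.8% higher and 24.7% lower over all tested genes, with a median log2 fold change of 0.41. Dusp6, which encodes a cytoplasmic ERK phosphatase, averaged 258.7 ± 32.7 CPM in D69A and 188.4 ± 35.2 CPM in WT tumors (SD, n = 5 each), which is 0.46 on the log2 scale (SE 0.13; edgeR's quasi-likelihood test, adjusted p = 0.0144). Spred2 (log2 fold change 0.50, SE 0.10), an inhibitor of Raf activation, and the nuclear phosphatase gene Dusp4 (0.43, SE 0.11) were higher as well. Dusp5, another nuclear ERK phosphatase gene, was lower at 7.09 ± 1.63 CPM in D69A and 22.9 ± 9.89 CPM in WT tumors (log2 fold change -1.69, SE 0.29). Dusp1, the phosphatase gene for stress kinases, did not pass (-0.37, SE 0.20). Melanocyte lineage markers moved with this list, 5 of 8 being higher in D69A tumors, and their part in it was not tested. Without the 3 tumors highest in muscle markers 3 of the 12 were higher while their median was 0.39, and Dusp6 was at 0.44 and did not pass (edgeR's adjusted p = 0.0636).

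Genes for upstream factors were set beside the group. Of 6 genes for SRF, ternary complex factors and myocardin-related cofactors, 1 was higher and 1 lower, beside 18.8% higher and 24.7% lower over all tested genes. These counts are not above the shares over all genes. Mrtfb was the higher (log2 fold change 0.30, SE 0.07) and Mrtfa the lower (-0.34, SE 0.11), while Srf itself did not pass (58.7 ± 6.62 CPM in D69A and 61.5 ± 9.98 CPM in WT tumors, SD, n = 5 each). With 1 tumor left out, Mrtfa did not pass in 6 of 10 cases (without D69A 2, 3, 4 or 5, WT 3 or 5; adjusted p up to 0.0777 in edgeR's quasi-likelihood test). Nab2, the corepressor gene that Egr proteins induce, stood at 34.7 ± 4.13 CPM in D69A and 39.0 ± 4.06 CPM in WT tumors (log2 fold change -0.17, SE 0.09), and neither it nor Nab1 passed, also at an unadjusted p under 0.05 or by DESeq2 or limma-voom.

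Of 12 leucine zipper genes of the ATF, CREB, BATF and MAF families, several of whose products pair with Fos or Jun proteins, 6 were lower and 2 higher, beside 24.7% and 18.8% over all tested genes, with a median of -0.20. The 2 that were higher are a share near that of all genes. Batf2 (log2 fold change -2.26, SE 0.34) and Batf3 (-1.16, SE 0.19), which is required for cross-presenting dendritic cells, were lower, as was Maf (-1.80, SE 0.31), a factor of macrophages and T cells. Dendritic cell markers (5 of 5, median -2.78) and macrophage and monocyte markers (7 of 8, median -1.69) were lower as well, and their part in these levels was not tested. Of 8 genes induced on T cell activation 7 were lower (24.7% over all tested genes) and 0 higher by edgeR, with 1 higher at an unadjusted p under 0.05 and by DESeq2 and 0 by limma-voom. Il2ra (log2 fold change -2.97, SE 0.35), which encodes the receptor chain CD25, Cd69 (-2.80, SE 0.38) and Tnfrsf9 (-2.16, SE 0.34) were lower. The 8 T cell markers fell too, with sums of 7.38 to 23.7 CPM in D69A and 31.9 to 94.8 CPM in WT tumors, so activation per T cell was not measured.

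**Figure D5:**
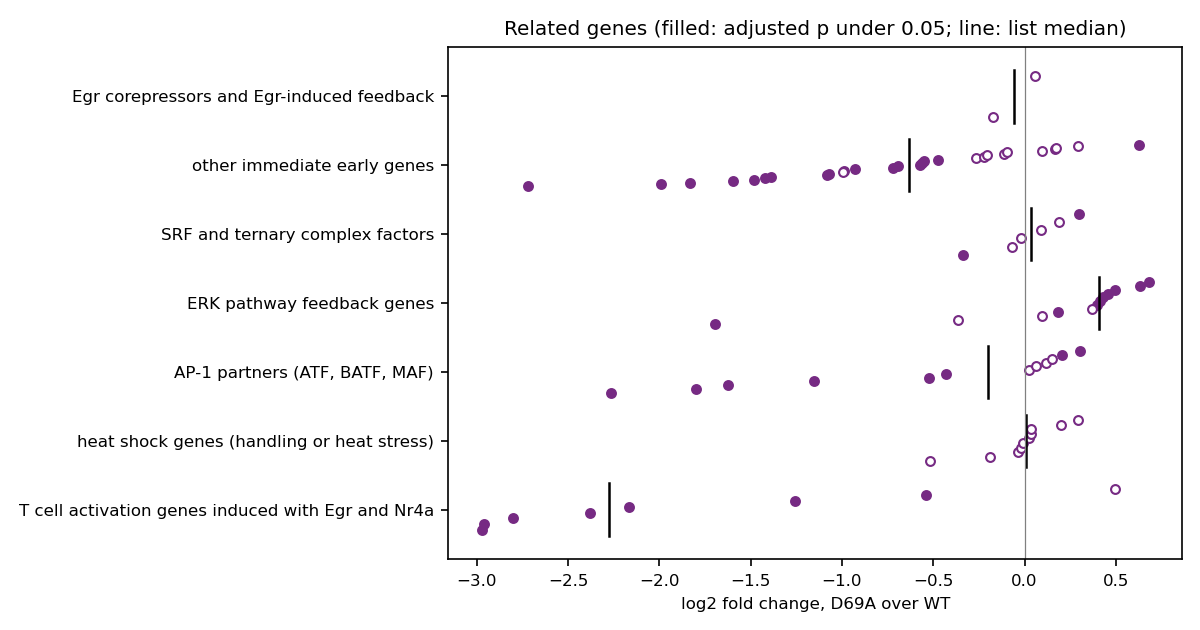
Log2 fold change of D69A over WT for each tested gene of 7 lists of related genes, filled where the adjusted p was under 0.05, with a line at the median of each list. Medians are -2.27 for T cell activation genes, -0.63 for other immediate early genes and 0.41 for ERK feedback genes.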

How the data were processed

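The deposited table holds read counts per Ensembl gene for 10 tumors, whole numbers not scaled between tumors. Per the submitters' processing notes, fastp, HISAT, Bowtie, RSEM and the build mm10 were used. Not given in the sources used here are their roles and versions, the counting rule and whether it used strand. The values may be rounded estimates, as RSEM produces, and related genes can share reads.

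The members and all lists were chosen with earlier results of these data known. Symbols came from GENCODE mouse release 21 (17670 of 17737 identifiers). No column was left unassigned. Genes were filtered with filterByExpr, scaled by TMM and tested with edgeR 4.0.16 (quasi-likelihood, R 4.3.3, Benjamini-Hochberg over 13798 genes), after a check on simulated counts. SEs were derived from the F statistic. Related genes named by rule are the 3 smallest p past the threshold in each list and 7 fixed genes (Srf, Dusp1, Dusp6, Nab2, Jund, Myc, Zfp36). Outside that rule, Nr4a2, Nr4a3, Fosl1 and Fosl2 were named after their values were seen. Nab1 and the heat shock genes were named outside it as well. Per tumor, 3 counts, taken as a floor, came to 0.0798 to 0.116 CPM, which covers counting error only. Tumors within a group differed by more than sampling noise (chi-square per degree of freedom at least 13.85), so none repeats the library of another. Each was taken as 1 replicate, although this check cannot tell whether the tumors came from separate mice. Alternatives were DESeq2 1.42.0, limma-voom (limma 3.58.1), other scalings, filters and pseudocounts, a replicate block, and fits with tumors left out.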

Additional observations from a re-analysis of the deposited data

Results flagged for a closer look

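A tumor was singled out where it stood apart from the next value by more than 0.71 of its group's range (Dixon's test). This held in 5 of 44 groups of values, and chance gives about 1 in 20. Egr2 was high in D69A tumor 1 (3.64 CPM, against 1.92 to 2.28 CPM in the other D69A tumors). D69A tumor 3 was high in Fosb (3.87 CPM, against 1.09 to 1.76 CPM), in Jun (56.3 CPM, against 31.1 to 38.1 CPM) and in Atf3 (31.9 CPM, against 18.7 to 22.6 CPM). Fos was high in WT tumor 5 (82.7 CPM, against 28.0 to 39.9 CPM in the other WT tumors). Values of a tumor vary together, so these are not independent of each other.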

How the results depend on the processing

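The count of members lower in D69A tumors was 7 in every alternative run except without the 3 tumors highest in muscle markers, where it was 5. The count higher in D69A tumors was 0 to 1 with 1 tumor left out, the 1 being Nr4a1 without WT tumor 2, and 0 in the other alternatives. The log2 fold change of Fos ranged from -0.41 to 0.11 with 1 tumor left out, and that of Srf from -0.12 to 0.0496, neither passing. All 12 Egr ratios passed with any 1 tumor left out. With the replicate number as a block 0 passed, since the 4 shared numbers allow no p below 0.125, and without the 3 muscle-rich tumors 0 passed, since 4 against 3 tumors allow none below 0.0571. Without D69A tumor 3 and WT tumor 5, an alternative added after seeing the data, 0 passed as well, and Srf was at 0.0018. In that setting passing was possible (smallest possible p 0.0286), and the exact permutation adjusted p was 0.0623 to 0.0857. All 12 differences stayed negative in the 3 settings. Tumors of equal number had correlations of group-centred levels of 0.177, -0.437, 0.193 and 0.167 for numbers 2 to 5. The WT tumor most like each of these D69A tumors had another number. A pairing that leaves no trace in expression would not be seen this way. The replicate block in edgeR changed no member's call, although Srf went to 0.023, and called 5464 genes in all, against 6004. Over the edgeR, DESeq2 and limma-voom alternatives the count over all genes ranged from 4342 to 6651. Fosb and the Egr genes are low in counts, which adds counting error. The SE was 0.38 for Fosb, 0.31 for Egr1, 0.25 for Egr2 and 0.43 for Egr3, against 0.30 for Fos.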

Other observations

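Fosl1, a relative of Fos, was below the filter on low counts used for the main results, at 0.172 ± 0.09 CPM in D69A tumors and 0.562 ± 0.57 CPM in WT tumors (SD, n = 5 each). Its paralog Fosl2 was lower in D69A tumors, at 36.0 ± 5.57 CPM in D69A and 68.7 ± 26.1 CPM in WT tumors (log2 fold change -0.93, SE 0.22; edgeR's quasi-likelihood test, adjusted p = 0.00628). Both were named after their values were seen.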
